A study of Rattus norvegicus with 17 samples.

Results

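Sebaceous lipid synthesis was followed through 10 genes of rat skin: the fatty acid enzymes Acaca, Fasn, Scd and Elovl3, the fatty alcohol and wax enzymes Far2, Awat1 and Awat2, the esterifying enzymes Dgat2 and Soat1, and the receptor Mc5r. The genes were listed by name, and an array probe belonged to one of them when its sequence name matched that gene in the rat RefSeq table. 9 of the 10 genes had a probe, 10 probes in all, of 30367 probes on the array. No named probe was matched to Far2, an enzyme that makes fatty alcohols, so its level was not analysed here. All 10 probes lay well above background on all 17 arrays and passed the filter that kept 20709 probes, and none was saturated.

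The tissue was skin from male CD hairless rats, which the labels call young, at 2 to 3 months. As the exposure lasted 5.5 months, this is read as the age at its start. Each explant was measured on a 1-colour Agilent array, on which labelled RNA gives a fluorescence intensity per probe. Exposed rats received millimetre waves of 94 GHz for 3 h a day on 3 days a week over 5.5 months, which gave 9 arrays, and sham-exposed rats went through that schedule without the field, which gave 8 arrays. Arrays are named by replicate numbers given in deposit order, which pair no arrays. The design text counts 6 exposed and 8 sham animals and no label ties an array to an animal, so exposed arrays can come from the same animal, and p-values, which rest on the spread from array to array, may then be too small.

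Sebaceous glands are lobes of lipid-filling cells attached to the hair follicle, and their cells burst to release sebum, a mixture rich in wax esters, triglycerides and sterol esters. Acetyl-CoA carboxylase (Acaca) and fatty acid synthase (Fasn) build the acyl chains, stearoyl-CoA desaturase (Scd) and the elongase Elovl3 desaturate and lengthen them, and acyltransferases then join them to fatty alcohols, glycerides or cholesterol. In mice, loss of the melanocortin receptor Mc5r, or of Scd1, disturbs sebum production.

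Sequences in front of the gene start are shown for the 5 measured genes that matched the RefSeq promoter table of assembly GRCr8, because several of these genes varied together between explants, as described further on. Each run is the 250 bases before the start, 5′ to 3′ on the strand of the gene, in lower case. Capitals mark a CCAAT box, the letters bound by the general factor NF-Y, or its reverse complement ATTGG. The wax synthases come first, then Soat1, then the fatty acid enzymes.
Awat1, chrX:69708036-69708285 (plus strand): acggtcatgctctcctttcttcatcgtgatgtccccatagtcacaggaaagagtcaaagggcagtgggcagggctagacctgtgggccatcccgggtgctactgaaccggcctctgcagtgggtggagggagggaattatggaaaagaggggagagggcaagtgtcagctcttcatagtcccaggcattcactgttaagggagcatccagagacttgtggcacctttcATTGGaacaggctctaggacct
Awat2, chrX:69530665-69530914 (minus strand): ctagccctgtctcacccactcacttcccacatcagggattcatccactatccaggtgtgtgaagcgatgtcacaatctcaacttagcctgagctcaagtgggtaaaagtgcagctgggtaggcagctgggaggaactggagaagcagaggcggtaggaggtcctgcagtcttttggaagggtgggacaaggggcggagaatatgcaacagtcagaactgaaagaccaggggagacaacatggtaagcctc
Soat1, chr13:71147673-71147922 (minus strand): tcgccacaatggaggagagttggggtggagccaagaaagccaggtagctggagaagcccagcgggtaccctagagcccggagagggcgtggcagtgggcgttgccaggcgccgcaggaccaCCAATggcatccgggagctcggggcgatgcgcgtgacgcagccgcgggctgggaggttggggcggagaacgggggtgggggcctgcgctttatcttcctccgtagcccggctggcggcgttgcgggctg
Scd, chr1:253231732-253231981 (minus strand): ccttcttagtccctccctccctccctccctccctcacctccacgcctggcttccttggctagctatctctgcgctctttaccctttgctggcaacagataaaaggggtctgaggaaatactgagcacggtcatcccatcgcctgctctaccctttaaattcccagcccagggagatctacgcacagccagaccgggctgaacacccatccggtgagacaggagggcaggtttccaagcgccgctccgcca
Elovl3, chr1:254938481-254938730 (plus strand): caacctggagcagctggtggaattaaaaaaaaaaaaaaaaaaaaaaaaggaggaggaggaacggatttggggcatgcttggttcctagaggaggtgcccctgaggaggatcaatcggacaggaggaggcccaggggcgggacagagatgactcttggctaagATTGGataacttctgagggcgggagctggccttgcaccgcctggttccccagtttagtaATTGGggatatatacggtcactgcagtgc

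The search also took in Far2 and ran on both strands from 250 bases before to 50 bases after each start. CCAAT was found in 3 of 6 promoters, those of Elovl3, Soat1 and Awat1, against 37.5% of all 33469 promoters of the table. Elovl3 held it from 88 to 84 and from 29 to 25 bases before the start on the opposite strand, Soat1 from 129 to 125 bases before the start on the strand of the gene, and Awat1 from 22 to 18 bases before the start on the opposite strand. The sterol regulatory element TCACNCCAC was in 0 of 6, against 1.12% of all promoters. The direct repeats of AGGTCA with 1 and with 4 bases between the copies, read by nuclear receptors of the PPAR, retinoid and LXR kinds, were in 0 of 6 each, against 0.0538% and 0.00598% of all. No match of one motif overlapped another, and these matches describe letters only.

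Levels are given as log2 of the processed intensity minus the 75th percentile of that array, so that 1 unit is a doubling and 0 is the array's 75th percentile. That percentile ran from 1077 to 1703 intensity units over the 17 arrays. Between 66.7% and 70.8% of the probes on an array exceeded background clearly. Levels of different probes cannot be set against each other. The arrays lay on 4 slides, and 0 of 20709 probes differed between slides at an adjusted p under 0.05 in limma, with 7.93% at an unadjusted p under 0.05. Markers of the gland that are not lipid enzymes were present: 8 of 11 had a probe that was kept, and all 8 lay well above background on all 17 arrays. The gland score, the mean of these markers after centring each on its own mean, ran from -0.12 to 0.057 in exposed skin and from -0.068 to 0.098 in sham skin. It averaged -0.030 ± 0.058 in exposed skin and 0.033 ± 0.065 in sham skin (SD, n = 9 and 8). That difference of -0.063 was not tested. Sham replicate 5 stood apart in the hair follicle score, at -6.48, with 4 of 9 follicle markers well above background there and 8 or 9 of 9 on each other array, and follicle scores elsewhere ran from -3.25 to 2.45.

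None of the 9 measured genes passed the test for exposure, with 9 exposed and 8 sham arrays. 0 of 9 had an adjusted p under 0.05 in limma, where 0 of 20709 probes did (0%), and 0 of 9 had an unadjusted p under 0.05, against 4.55% of probes. That background was lopsided, with 123 probes higher (0.594%) and 820 lower (3.96%) in exposed skin at the unadjusted threshold, against 200 and 635 with quantile scaling and 203 and 595 with median scaling. The median difference over the 9 genes was 0.047 log2 units, exposed minus sham, with 5 genes higher and 4 lower, or 7 and 2 with quantile scaling, which turned the sign of Scd and Fasn. Over all kept probes the median was -0.025 and 38.7% were higher. The median of the 9 genes was -0.015 with slide as a block in the fit and -0.013 with array weights, so its sign was not fixed. Exposed and sham values overlapped for 9 of 9 genes. The share of all kept probes that overlap was not computed, so this count is not a result about these genes. The 95% intervals of 8 of 9 differences lay within 1.5-fold either way, and the exception was Mc5r, whose upper bound was 1.55-fold. The share of all kept probes with such intervals was not computed either, so this count is not particular to these genes. In bulk skin, fewer gland cells and less RNA per gland cell cannot be told apart.

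**Figure D1:**
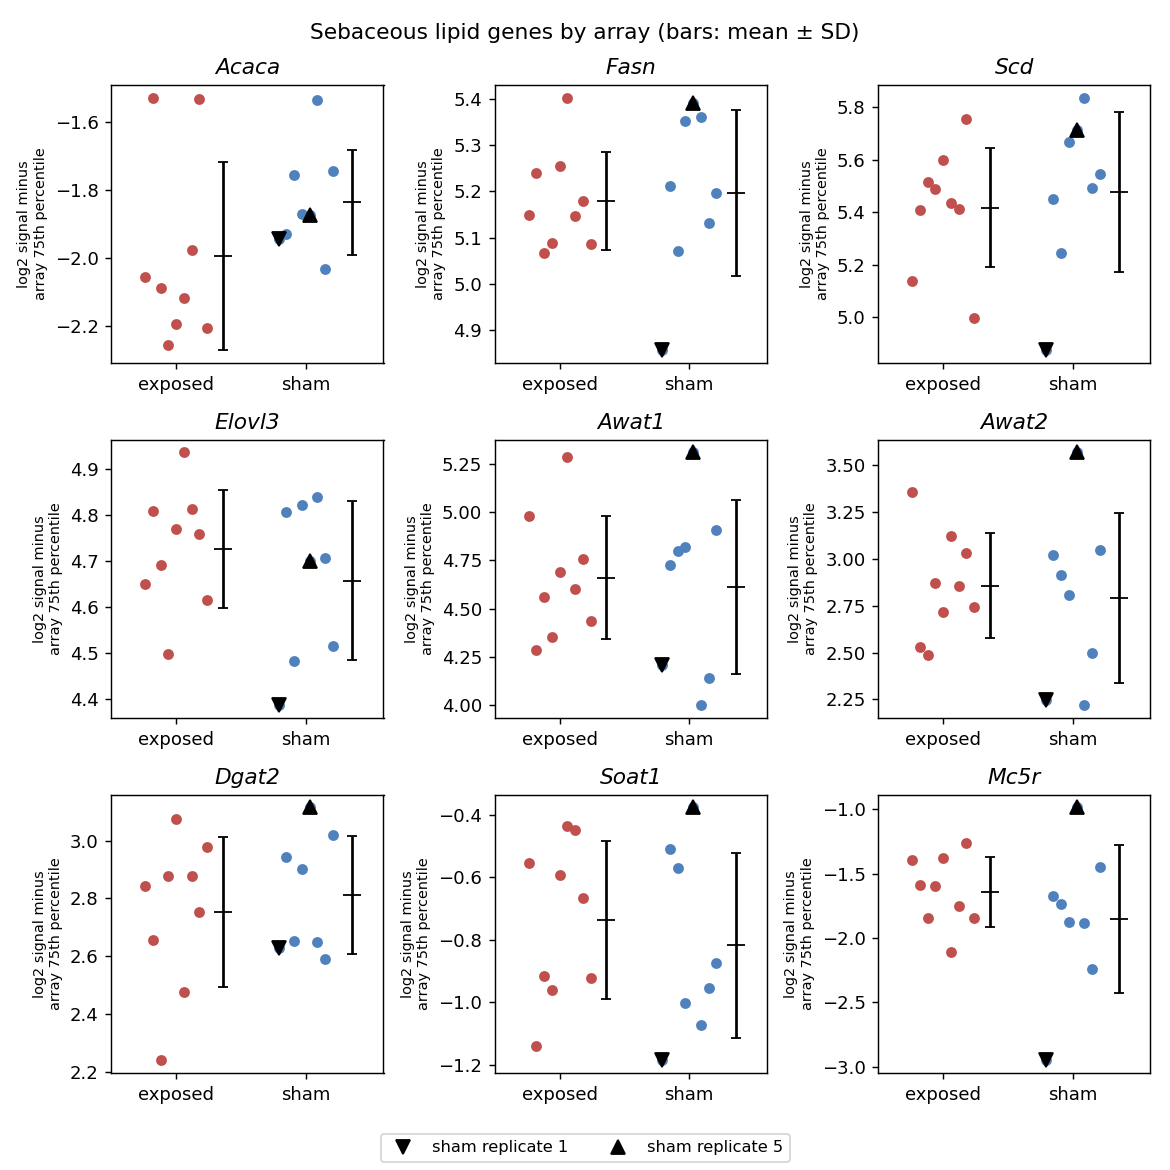
Level of each gene on each array (y axis, log2 intensity minus the array's 75th percentile), exposed arrays left (n = 9) and sham arrays right (n = 8), with bars for the mean and SD. Exposed and sham values overlap in all 9 panels, and sham replicate 1 (downward triangle) and sham replicate 5 (upward triangle) take the lowest or highest place in many of them.

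The fatty acid enzymes differed by less than their SD between arrays, pooled over both groups. For Acaca the difference (-0.159) was slightly larger than the SD of the sham arrays alone (0.154). Fasn, which makes palmitate from acetyl and malonyl units, had a lowest, median and highest value of 5.07, 5.15 and 5.40 in exposed skin, against 4.86, 5.20 and 5.39 in sham skin. The highest value was that of exposed replicate 6 and the lowest that of sham replicate 1, and the exposed values lay inside the sham range apart from that highest one. Fasn averaged 5.18 ± 0.11 in exposed skin and 5.20 ± 0.18 in sham skin (SD, n = 9 and 8), a difference of -0.017 (95% interval -0.17 to 0.13, limma adjusted p = 0.990).

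Acaca makes malonyl-CoA, the building block that Fasn uses. Its lowest, median and highest values were -2.26, -2.09 and -1.53 in exposed skin, against -2.03, -1.87 and -1.54 in sham skin. Most exposed arrays were low and a pair of them high: 2 of 9 exposed arrays, replicates 2 and 8, lay above the sham mean, and both reached the top of the sham range. Acaca averaged -1.995 ± 0.276 in exposed skin and -1.84 ± 0.15 in sham skin (SD, n = 9 and 8), and the difference of -0.16 (-0.38 to 0.067) had an adjusted p of 0.983 and an unadjusted p of 0.157 in limma. Within the slides that hold both groups it was 0.047, -0.32, 0.34 and -0.43 on slides 1 to 4, so its sign was not the same on every slide.

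Scd puts a double bond into saturated acyl chains. It had a lowest, median and highest value of 5.00, 5.44 and 5.75 in exposed skin, against 4.87, 5.52 and 5.84 in sham skin. Both ends of the range were sham arrays, replicate 1 at the bottom and replicate 6 at the top. The means were 5.42 ± 0.23 in exposed skin and 5.48 ± 0.30 in sham skin (SD, n = 9 and 8), with a difference of -0.061 (-0.32 to 0.20, limma adjusted p = 0.985). Leaving out 1 array moved that difference between -0.15, without sham replicate 1, and -0.0083, without exposed replicate 9.

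Elovl3 lengthens saturated and monounsaturated chains and, in mice, is made in sebaceous glands and brown fat. Its values ran from 4.50 to 4.94 around a median of 4.76 in exposed skin, and from 4.39 to 4.84 around a median of 4.70 in sham skin. As for Fasn, exposed replicate 6 was highest and sham replicate 1 lowest. The difference was 0.069 (-0.087 to 0.23, limma adjusted p = 0.983), with 6 of 9 exposed arrays above the sham mean and positive values on slides 1, 2 and 3 (0.12, 0.10 and 0.058) and a negative one on slide 4 (-0.072).

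The wax synthases varied more between explants than the elongase and the synthase did. Awat1 joins fatty alcohols to acyl chains, and had a lowest, median and highest value of 4.28, 4.60 and 5.28 in exposed skin, against 4.00, 4.76 and 5.31 in sham skin. Sham replicates 6 and 7 were lowest, and sham replicate 5 was highest with exposed replicate 6 next to it. The means were 4.66 ± 0.32 in exposed skin and 4.61 ± 0.45 in sham skin (SD, n = 9 and 8), a difference of 0.047 (-0.33 to 0.42, limma adjusted p = 0.989). Both probes of Awat1 gave nearly the same pattern (r = 0.990 over 17 arrays), and the other one differed by 0.051 (-0.37 to 0.47).

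Awat2 makes wax esters and also esterifies retinol. Its lowest, median and highest values were 2.49, 2.86 and 3.35 in exposed skin, against 2.22, 2.86 and 3.56 in sham skin. The medians lay together and the sham arrays were the more widely spread, with replicate 6 lowest and replicate 5 highest, as for Awat1. Awat2 averaged 2.86 ± 0.28 in exposed skin and 2.79 ± 0.45 in sham skin (SD, n = 9 and 8), a difference of 0.067 (-0.29 to 0.43, limma adjusted p = 0.986). On slide 3, which holds 1 exposed and 1 sham array, the sham one being replicate 5, the difference was -0.53 for Awat2 and -0.55 for Awat1.

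Dgat2 carries out the last step of triglyceride synthesis. It had a lowest, median and highest value of 2.24, 2.84 and 3.07 in exposed skin, against 2.59, 2.78 and 3.11 in sham skin. Exposed replicate 3 lay lowest of all arrays and sham replicate 5 highest. The means were 2.75 ± 0.26 in exposed skin and 2.81 ± 0.21 in sham skin (SD, n = 9 and 8), and the difference was -0.059 (-0.29 to 0.18, limma adjusted p = 0.985).

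Soat1 forms cholesterol esters in the endoplasmic reticulum. Its lowest, median and highest values were -1.14, -0.67 and -0.44 in exposed skin, against -1.19, -0.91 and -0.38 in sham skin. The arrays of each group fell into a higher and a lower band with few values between them, and sham replicates 1 and 5 again held the ends. Soat1 averaged -0.74 ± 0.25 in exposed skin and -0.82 ± 0.29 in sham skin (SD, n = 9 and 8), a difference of 0.081 (-0.19 to 0.35, limma adjusted p = 0.984).

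Mc5r, the melanocortin receptor of sebaceous and other exocrine glands, had the widest range of the 9 genes, 3.90-fold between its lowest and its highest array, against 1.46-fold for Fasn and 1.46-fold for Elovl3. Its lowest, median and highest values were -2.11, -1.60 and -1.26 in exposed skin, against -2.95, -1.80 and -0.99 in sham skin. Sham replicate 1 lay below every other array and sham replicate 5 above. Mc5r averaged -1.64 ± 0.27 in exposed skin and -1.85 ± 0.57 in sham skin (SD, n = 9 and 8), and the difference of 0.21 (-0.22 to 0.64) had a limma adjusted p of 0.983, with 8 of 9 exposed arrays above the sham mean. Without sham replicate 1 the difference was 0.052, and the SD of Mc5r over the remaining sham arrays was 0.39.

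**Figure D2:**
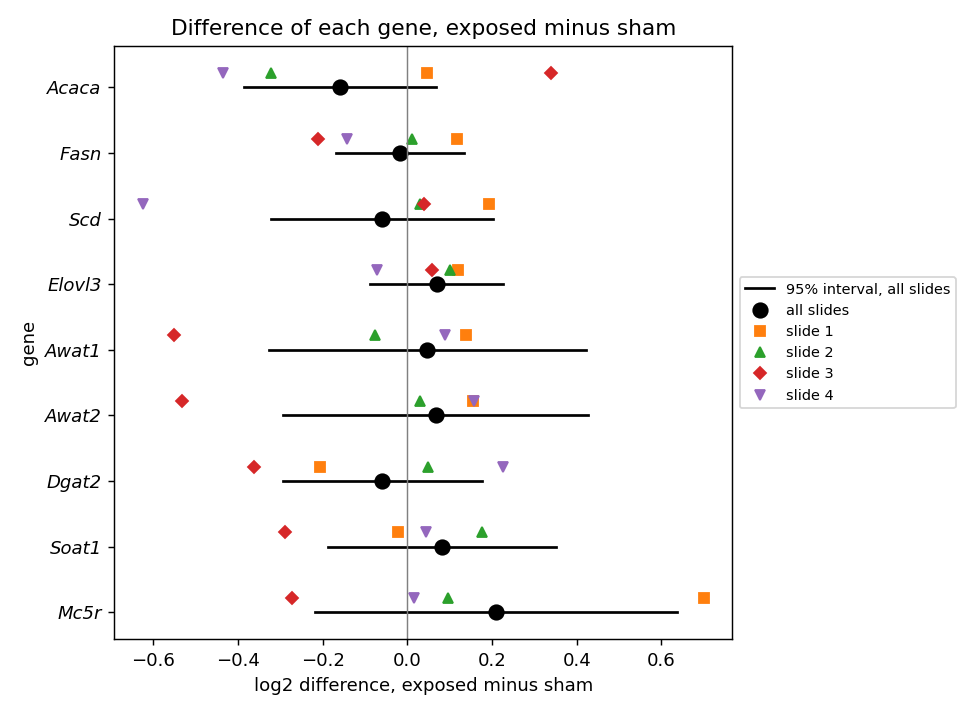
Difference of each gene, exposed minus sham, in log2 units (x axis), as an estimate over all slides with its 95% interval and as the value within each of the 4 slides. All 9 intervals include 0, and on slide 3, with 1 array per group, 6 of 9 values are negative.

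Spread within groups set these genes apart from each other more than exposure did. The median within-group SD of all kept probes was 0.19 log2 units. Mc5r, Awat1 and Awat2 varied more than most probes, with a lower SD found for 87.9%, 83.7% and 82.4% of kept probes. Soat1, Scd, Dgat2 and Acaca followed at 69.3%, 68.0%, 61.4% and 59.3%, and Elovl3 and Fasn varied less than most, at 34.4% and 31.8%. The SD was larger among sham than among exposed arrays for 7 of 9 genes, against 56.4% of kept probes, and for 6 of 9 without sham replicate 1, against 55.7%. Slide had an unadjusted p under 0.05 for 0 of 9 genes in limma, against 7.93% of kept probes.

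The same few arrays held the ends of the range. Sham replicate 1 was lowest for 5 of 9 genes (Soat1, Fasn, Mc5r, Scd and Elovl3), and sham replicate 5, the array with the low follicle score, was highest for 5 of 9 (Dgat2, Soat1, Awat2, Awat1 and Mc5r). The share of all kept probes with these arrays at an end was not computed, so these counts are not a result about these genes. After each gene was centred on its own mean, the median over the 9 genes was -0.41 in sham replicate 1 and 0.33 in sham replicate 5, while the 9 exposed arrays lay between -0.12 and 0.22 and the other 6 sham arrays between -0.18 and 0.18. The part of tissue makeup in these values was not tested. In sham replicates 1 and 5 the gland score was -0.052 and 0.093, the adipocyte score -0.46 and 0.21, and the follicle score 1.37 and -6.48.

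**Figure D3:**
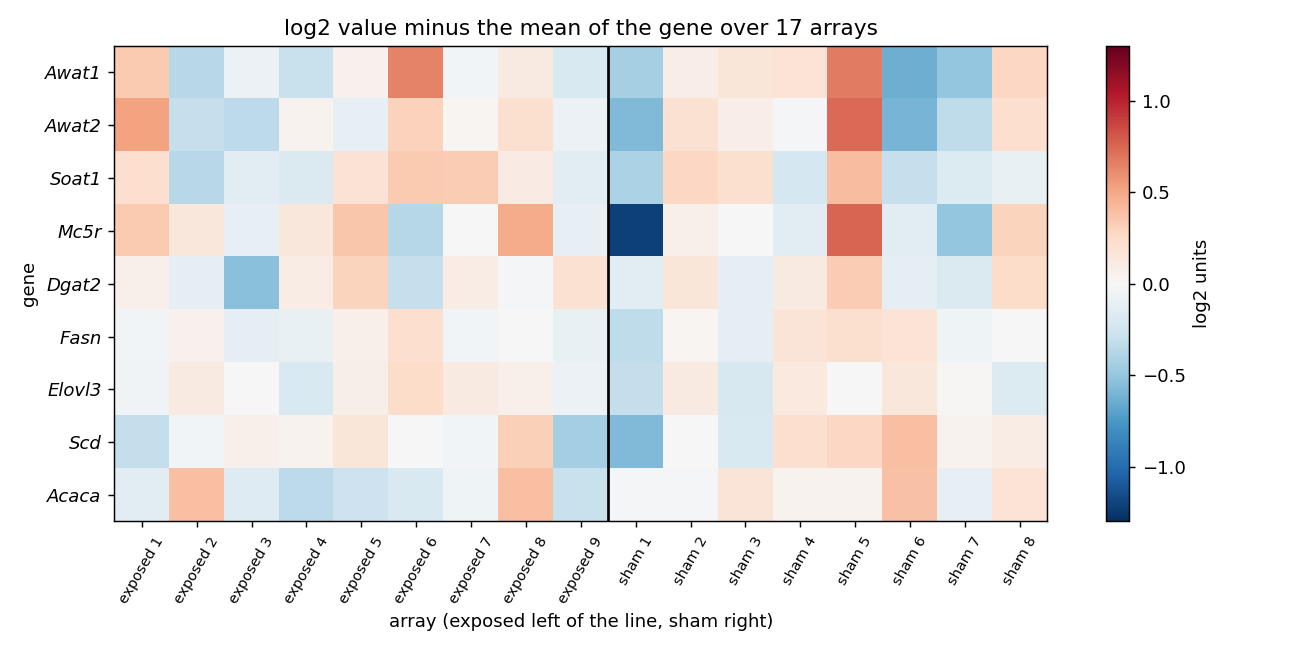
Value of each gene on each array minus the mean of that gene over 17 arrays (colour, log2 units), with exposed arrays left of the line and sham arrays right. Sham replicate 1 is low in most genes, sham replicate 5 is high in most, and sham replicate 6 is low in Awat1 and Awat2 but highest in Scd.

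Which genes varied together between explants was asked for all 36 pairs, with permutation p-values adjusted over the 36. 31 pairs were positively and 5 negatively correlated over the 17 arrays, with a median r of 0.30. 6 pairs had an adjusted p under 0.05 by Pearson's r and 4 of them also by Spearman's rho. They formed a wax and sterol ester set of Awat1, Awat2 and Soat1, to which Mc5r was tied through Awat2, and a chain of Scd, Fasn and Elovl3. The share of all gene pairs that would pass was not computed. With group means removed, the 6 pairs had r from 0.681 to 0.882. The 95th percentile of r over 11152 other named genes then ran from 0.540 for Elovl3 to 0.630 for Fasn among the genes of these pairs. Genes outside the list reached higher r, such as Cdc34 with Awat1 (0.951).

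The closest pair was that of both wax synthases, Awat1 and Awat2, with r = 0.883 and rho = 0.885 (n = 17, adjusted permutation p = 0.00036 and 0.00108). Without sham replicates 6 and 5, the arrays farthest from the median, r was 0.805, and with slide means removed it was 0.846. It was 0.729 among exposed arrays and 0.960 among sham arrays, a difference that was not tested. On slide 2, the slide with most arrays, r was 0.676.

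Soat1 moved with both of them. Its r was 0.783 with Awat2 (rho = 0.762) and 0.775 with Awat1 (rho = 0.743), with an adjusted permutation p of 0.00288 for each r and 0.00783 for each rho. Without sham replicates 5 and 6 the values were 0.716 and 0.703, and with slide means removed 0.712 and 0.673. Within slide 2, r was 0.391 with Awat2 and 0.475 with Awat1.

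Fasn and Elovl3 had r = 0.771 and rho = 0.752 (adjusted permutation p = 0.00306 and 0.00783). Without sham replicate 1 and exposed replicate 6, r was 0.585, with slide means removed 0.797, and within slide 2 0.866. The value was 0.815 among exposed arrays and 0.815 among sham arrays.

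Scd and Fasn had r = 0.720 (adjusted permutation p = 0.00814), but rho was 0.559 with an adjusted p of 0.113. Their r was 0.247 among exposed arrays and 0.965 among sham arrays, a difference that was not tested. Without sham replicate 1 and exposed replicate 9, r was 0.526, and with slide means removed 0.652. The pair did not pass with quantile scaling (r = 0.610), normexp with quantile scaling (0.582) or the value table (0.606), nor without sham replicate 1 (0.574). For Scd and Elovl3 r was 0.560 (adjusted permutation p = 0.100).

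Mc5r and Awat2 had r = 0.680 (adjusted permutation p = 0.0139), and rho was 0.586 with an adjusted p of 0.0898. This relation rested on the arrays at the ends: r was 0.424 without sham replicates 1 and 5, 0.179 among exposed arrays, 0.853 among sham arrays and -0.834 within slide 2. With slide means removed it was 0.559 and no longer passed (adjusted permutation p = 0.0956).

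Between Scd, Fasn and Elovl3 on one side and Awat1, Awat2 and Soat1 on the other, 0 of 9 pairs passed, although all 9 correlations were positive. Fasn had the highest, with r = 0.452 with Awat1, 0.381 with Awat2 and 0.352 with Soat1, and Fasn with Awat1 passed without sham replicate 6 (r = 0.696, adjusted permutation p = 0.0169). Elovl3 had r = 0.304 with Soat1, 0.188 with Awat1 and 0.0843 with Awat2, and Scd had r = 0.142, 0.135 and 0.124 with Soat1, Awat1 and Awat2. A p that misses the threshold does not show that these genes varied separately. Acaca was negatively correlated with Soat1 (r = -0.200), Awat1, Awat2 and Dgat2, and 0 of its 8 pairs passed. Without sham replicates 1 and 5 together, a choice made after these data were seen, 4 pairs passed: Awat1 with Awat2 (0.836), Fasn with Elovl3 (0.749), Awat1 with Soat1 (0.696) and Awat2 with Soat1 (0.683).

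**Figure D4:**
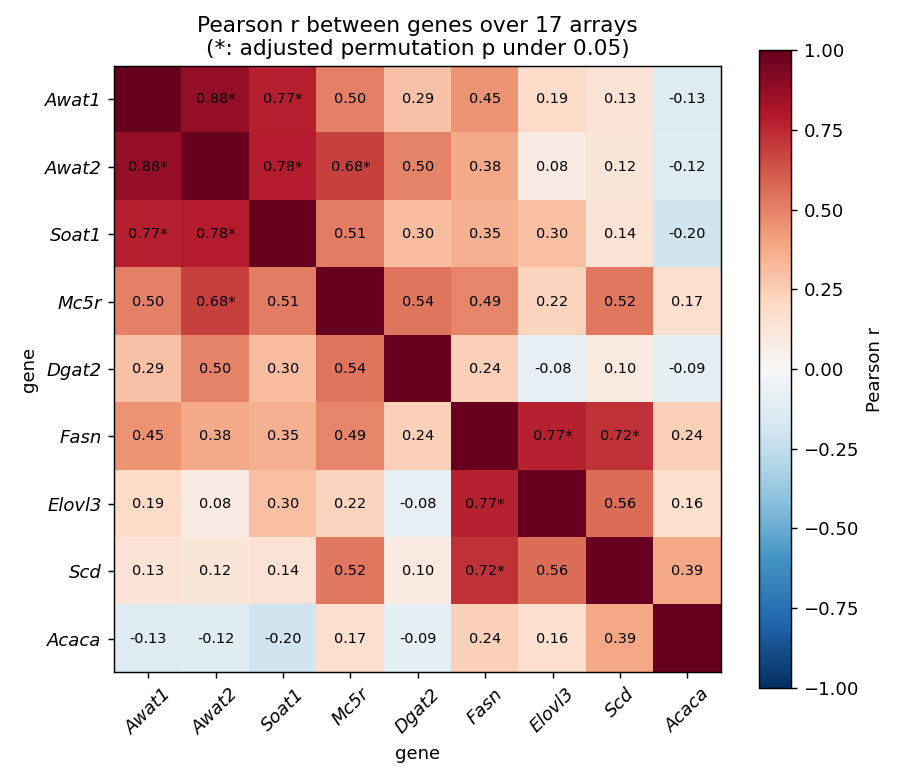
Pearson r over 17 arrays for each pair of the 9 genes, as colour and number, with an asterisk where the permutation p adjusted over 36 pairs is under 0.05. The asterisks mark Awat1, Awat2 and Soat1 with each other, Mc5r with Awat2, and Fasn with Elovl3 and Scd.

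**Figure D5:**
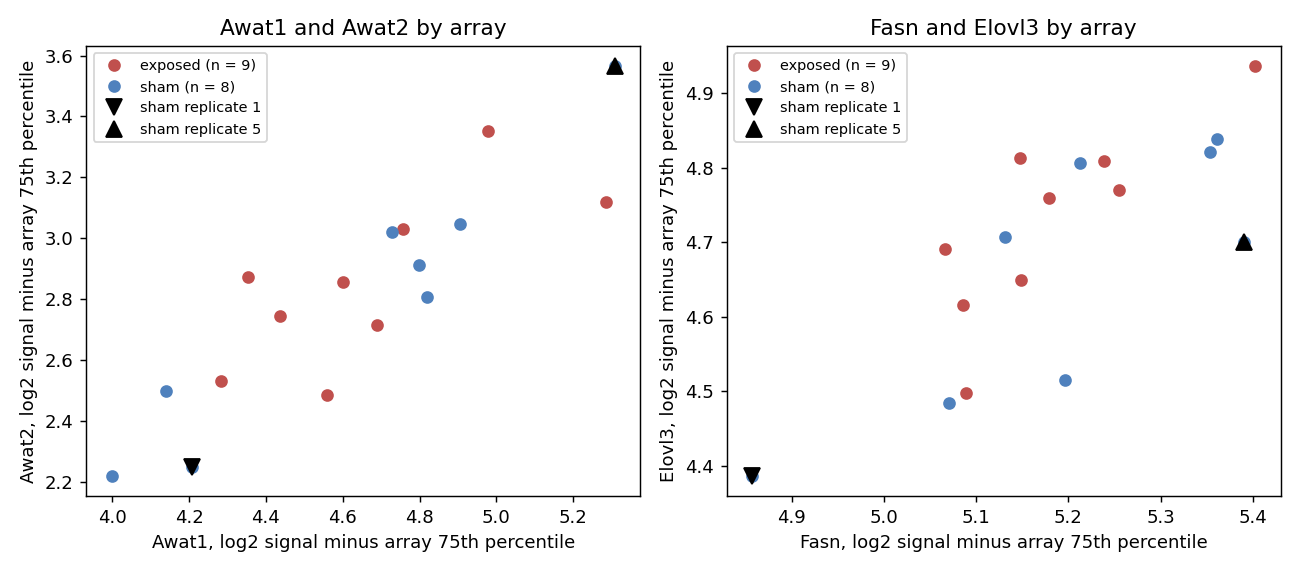
Awat2 against Awat1 (left panel) and Elovl3 against Fasn (right panel) on each of 9 exposed and 8 sham arrays, in log2 intensity minus the array's 75th percentile. Exposed and sham arrays lie along the same diagonal in both panels, with sham replicate 5 at the top of the left one and sham replicate 1 at the bottom of the right one.

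Markers of the cell types that an explant can hold were set beside the genes as 5 scores. The gland score is given above. Adipocyte scores (10 of 12 markers measured, Lep too dim) ran from -0.21 to 0.47 in exposed skin and from -1.10 to 1.08 in sham skin. Follicle scores (9 of 11) ran from -3.25 to 2.30 in exposed skin and from -6.48 to 2.45 in sham skin. Skeletal muscle scores (6 of 10, Myh2 and Myh4 too dim) ran from -3.57 to 5.92 in exposed skin and from -3.61 to 5.28 in sham skin. Epidermis scores (5 of 9) ran from -0.43 to 0.26 in exposed skin and from -0.11 to 0.23 in sham skin. In all 5 lists 0 markers passed the adjusted threshold for exposure in limma. At an unadjusted p under 0.05 there was 1 marker of 8 in the gland list and 0 in the other lists, beside 4.55% of all kept probes.

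Of 45 relations between a gene and a score, 0 passed after adjustment over the 45, by Pearson's r or Spearman's rho, and 3 had an unadjusted permutation p under 0.05 by each. Scd and the gland score had r = 0.632 and rho = 0.586 (permutation p = 0.00639, adjusted p = 0.288), and r was 0.681 without exposed replicates 3 and 9. Without exposed replicate 3 alone, this relation passed (r = 0.745, adjusted permutation p = 0.0346). Fasn and the gland score had r = 0.527 (adjusted permutation p = 0.377). Acaca, Dgat2, Elovl3 and Mc5r had r = 0.453, 0.429, 0.389 and 0.290 with the gland score. For Awat2, Soat1 and Awat1 it was lower, at 0.180, 0.064 and 0.039. With the adipocyte score, Awat2, Soat1 and Awat1 had r = 0.424, 0.444 and 0.475 (adjusted permutation p = 0.377 for each). Dgat2 and the epidermis score had r = 0.516 (adjusted permutation p = 0.377), which was 0.0107 without exposed replicates 6 and 3.

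Other genes of the pathway did not pass in limma either, with 0 at an adjusted and 0 at an unadjusted p under 0.05 in each of 4 lists. Over all kept probes the shares were 0% and 4.55%. Of the genes that supply and modify acyl chains, 20 of 21 were measured, 12 higher and 8 lower, with a median difference of 0.012. Of all kept probes 38.7% were higher, with a median of -0.025. Acss2, which activates acetate to acetyl-CoA, averaged 0.53 ± 0.10 in exposed skin and 0.37 ± 0.24 in sham skin, a difference of 0.16 (-0.024 to 0.34). The elongases Elovl6 and Elovl5 differed by 0.10 and -0.066.

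Of the genes for glycerides, waxes and lipid droplets, 11 of 13 were measured, 7 higher and 4 lower, beside 38.7% of all kept probes higher. Their median difference was 0.015. The phosphatidate phosphatases Lpin1 and Lpin2 differed by 0.31 (-0.094 to 0.72) and -0.26 (-0.65 to 0.12), and Lpin1 lay well above background on 12 of 17 arrays. Dgat2l6, a relative of the wax synthases, differed by 0.15.

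Of the regulators, which include nuclear receptors and sterol sensing proteins, 15 of 16 were measured, 3 higher and 12 lower, with a median difference of -0.045, beside 38.7% of all kept probes higher. The retinoid receptor Rxra differed by -0.13, Scap, the escort of the sterol regulatory proteins, by -0.10, and the transcription factor Srebf2 by -0.064. Of the melanocortin genes 3 of 8 were measured, 2 higher and 1 lower. Mrap, a partner of melanocortin receptors, differed by 0.39 (-0.32 to 1.11), the precursor gene Pomc by 0.023 and Agrp, an antagonist in the brain, by -0.055, while Mc3r, Mc4r and Mrap2 were too dim.

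The genes most like each of the 9 were the 3 with the highest r over 17 arrays, with group means removed, of 11152 other named genes. These values are descriptions, since the arrays share their scaling and many genes vary together. Awat1 was closest to Cdc34 (0.951), a ubiquitin-conjugating enzyme, Pla2r1 (0.949) and Mid1ip1 (0.930), which in mouse promotes the assembly of acetyl-CoA carboxylase. Awat2 was closest to Slc48a1 (0.903), Tor2a (0.895) and the sterol carrier Stard5 (0.892). Soat1 had Suclg2 (0.838), Psmc3 (0.825) and Bbox1 (0.818), and Dgat2 had Eif4h (0.951), Blmh (0.946) and Btc (0.944).

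Fasn was closest to Pex16 (0.948), which takes part in building peroxisomes, Bckdha (0.943), a subunit of the enzyme that breaks down branched-chain keto acids, and Polr2e (0.927). Elovl3 was closest to Fitm2 (0.853), a protein of lipid droplet formation, Alg3 (0.846) and Kcnk1 (0.843). Scd had Mcrip2 (0.873), Emc9 (0.868) and B3gat3 (0.862), and Acaca had Son (0.852), Zbtb38 (0.850) and Pfdn5 (0.846). Mc5r had the lysosomal enzyme Ppt1 (0.917), the collagen gene Col1a2 (0.895) and Cgref1 (0.886).

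For the mean of the 9 genes, each put on a common scale, the 10 most alike were Mcee (0.903), Grpel1, Pnpla5, Hsd17b10, Ap4s1, Sar1b, Syngr1, Bmf, Msrb2 and Akr7a2 (0.884). Mcee and Hsd17b10 are mitochondrial enzymes of acyl-CoA metabolism, and Pnpla5 belongs to the family of lipid droplet lipases. The 5 most opposed were Fut7 (-0.912), St6gal1 (-0.882), Plcl1 (-0.862), Adamts1 (-0.847) and Edn1 (-0.841). Fut7 and St6gal1 add sugars to glycans, and Edn1 encodes the peptide endothelin.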

How the data were processed

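Skin RNA of 17 explants was measured on 1-colour Agilent arrays. The authors' scanner files hold intensity on a linear scale from Agilent Feature Extraction 10.7.3.1, protocol GE1_107_Sep09, with a grid on rn4, and background subtraction and spatial detrending came before the processed signal, per the file headers. Spot flags were likewise set by that software, per the file headers. The deposited value table holds log2 values of 14853 probes with a median of 0 per probe. Set against scanner values centred in the same way, its columns had r between 0.969 and 0.999 and slopes between 0.960 and 1.01, and their own medians lay between -0.0375 and 0.0412. Its scale and direction were settled that way, and its scaling step is not given in the sources used here.

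The values used were log2 of the processed signal, from which the 75th percentile of the array's non-control spots was subtracted. Outlier spots were left out, and a probe's value is the mean of its remaining spots. A probe was kept when at least 50% of its spots were well above background on at least 8 arrays. Symbols came from a rat RefSeq table of GRCr8, used for names (17998 probes named), and promoters from its promoter table. A gene with several probes was read from the probe with the highest mean. Exposed and sham arrays were compared over all kept probes with limma 3.58.1 in R 4.3.3, with Benjamini-Hochberg adjustment and a threshold of 0.05. Pairs were tested with 100000 two-sided permutations, whose smallest p is 1e-05. The number of arrays limits the precision.

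The 10 genes, the lists and the markers were chosen with earlier results of these data known. All 10 genes were named in any case, with the 3 of smallest unadjusted p in each further list and the most alike genes. Alternatives were median and quantile scaling, normexp with an offset of 50, other filters on dim probes, the value table, array weights, slide as a block or alone, tissue scores as covariates, the mean of probes and leaving out arrays. The scores used as covariates were those of adipocyte, hair follicle and skeletal muscle, without the gland and epidermis scores. Normexp ran on the median pixel signal, since the files used here hold no mean one. Exposed and sham arrays numbered 3 and 2, 4 and 2, 1 and 1, and 1 and 3 on slides 1 to 4.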

Additional observations from a re-analysis of the deposited data

Results flagged for a closer look

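Of 30 groups of values checked for an array far from the others, 1 was singled out, where chance gives about 1 in 20. The hair follicle score of sham replicate 5 was -6.48, lowest of the 8 sham arrays and far from the next one at -1.51. The gap was 0.556 of the range of that group, against Dixon's critical value of 0.526. The same array was highest of all 17 for Dgat2, Soat1, Awat2, Awat1 and Mc5r, and its gland score was 0.093. The part of follicle content in those values was not tested.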

How the results depend on the processing

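Each of the 9 genes stayed without a call for exposure under each alternative run in limma, and 0 probes passed the adjusted threshold in any of them. Signs were less fixed, as several of these small differences moved across 0. Leaving out 1 array at a time gave -0.066 to 0.010 for Fasn, -0.041 to 0.15 for Awat1, -0.015 to 0.18 for Awat2, -0.099 to 0.0048 for Dgat2, -0.15 to 0.018 for Agrp, -0.051 to 0.10 for Pomc and -0.025 to 0.076 for the median of the 9 genes. Scd, at -0.15 to -0.0083, and Mc5r, at 0.052 to 0.33, kept their signs in those runs. Quantile scaling turned Scd to 0.0066 and Fasn to 0.027, as the value table did (0.0066 and 0.027), and normexp with quantile scaling gave 0.011 and 0.017. Normexp with the 75th percentile gave -0.081 for Lpin1 and -0.020 for Pomc. With slide as a block Awat1 was -0.038 and the median of the 9 genes -0.015. With array weights Awat1 and that median were both -0.013. With the adipocyte, hair follicle and skeletal muscle scores as covariates Awat1 was -0.049, Fasn 0.016, Mrap -0.039 and Pomc -0.020. The gland and epidermis scores were not in that fit, so these values are not adjusted for gland content.

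Within slide 1 the values of opposite sign were 0.19 for Scd, 0.12 for Fasn, 0.047 for Acaca, -0.021 for Soat1, 0.049 for Elovl5, 0.13 for Lpin2 and 0.15 for Agrp. Within slide 2 they were 0.029 for Scd, 0.012 for Fasn, -0.077 for Awat1, 0.049 for Dgat2, 0.0059 for Elovl5, -0.044 for Elovl6, -0.19 for Lpin1, -0.18 for Dgat2l6, 0.086 for Scap, 0.26 for Agrp and -0.036 for Pomc. Within slide 3 they were 0.040 for Scd, 0.34 for Acaca, -0.27 for Mc5r, -0.55 for Awat1, -0.53 for Awat2, -0.29 for Soat1, -0.34 for Elovl6, 0.044 for Lpin2, -0.22 for Dgat2l6, -0.56 for Mrap, -0.17 for Pomc and -0.27 for the median of the 9 genes. Within slide 4 they were -0.072 for Elovl3, 0.23 for Dgat2 and 0.0073 for Srebf2. The cause was not tested.

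The number of gene pairs that passed was 6, and 4 to 11 when 1 array was left out: 4 without sham replicate 1, 5 without sham replicate 5 and 11 without exposed replicate 6. Awat1 with Awat2, Awat2 with Soat1, Awat1 with Soat1 and Fasn with Elovl3 passed in 17 of 17 of those runs, Scd with Fasn in 16, all but that without sham replicate 1, and Mc5r with Awat2 in 15, all but those without sham replicate 1 or 5. It was 7 with group means removed, 5 with slide means removed, 5 each with quantile scaling, normexp with quantile scaling and the value table, all 3 without Scd with Fasn, and 4 without sham replicates 1 and 5 together, a choice made after the data were seen. Of the 45 relations with scores, 0 to 1 passed when 1 array was left out, the 1 being without exposed replicate 3. No paired analysis was possible because the replicate numbers were given in deposit order and the labels hold none of their own, while slide, which the titles do give, served as a block above.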

Other observations

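In GRCr8, 4 protein-coding genes lie between Awat2 and Awat1 on chromosome X: Otud6a, LOC108349172, Igbp1 and Dgat2l6. Igbp1 and Dgat2l6, both well above background on 17 of 17 arrays, were set beside the wax synthases after the correlation of Awat1 and Awat2 had been seen, with p-values adjusted over these 4 relations. Dgat2l6, of the same acyltransferase family, had r = 0.617 and rho = 0.657 with Awat1 (adjusted permutation p = 0.0158 and 0.0102), and r = 0.667 and rho = 0.667 with Awat2 (0.0135 and 0.0102). Without sham replicates 6 and 5 these r were 0.484 and 0.564, and with slide means removed 0.593 and 0.656. For scale, the 95th percentile of r over 11152 other named genes, with group means removed, was 0.622 for Awat1 and 0.627 for Awat2. The r of Dgat2l6, taken without removing group means, was just below that level for Awat1 and above it for Awat2. The part of chromosomal position in these relations was not tested. Igbp1, a regulatory subunit of protein phosphatases, had r = 0.0678 with Awat1 and 0.271 with Awat2 (adjusted permutation p = 0.799 and 0.392).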
